A study of Mus musculus with 4 samples.

Results

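The genes described here are 10 genes of the oxidative stress defence: Nfe2l2, which encodes the transcription factor NRF2, its inhibitor Keap1, the NRF2 targets Nqo1, Slc7a11, Gclc, Gclm, Txnrd1 and Srxn1, and the metallothioneins Mt1 and Mt2. Every non-control probe annotated with a RefSeq accession of one of these genes was taken, which gave 10 probes, 1 for each gene, of 55681 probes and 20887 named genes on the array. Expression was compared between cultures of APPswe/PS1dE9 mice, a C57BL/6 line carrying a mutant amyloid precursor protein and a mutant presenilin of familial Alzheimer's disease, and cultures of wild-type (WT) C57BL/6 mice. In both genotypes, precursor cells of the telencephalon were taken from embryos at day 13, grown for 5 days as neurospheres with EGF and FGF2, and then plated on poly-L-lysine and laminin without growth factors for 7 days of differentiation. Each of 4 two-colour Agilent arrays compared 1 APPswe/PS1dE9 culture with 1 WT culture, starting from 100 ng of total RNA. APPswe/PS1dE9 RNA was labelled with Cy3 on replicates 1 and 2 and with Cy5 on replicates 3 and 4. The labels do not name the promoter that drives the transgenes. They call the replicates biological, but do not say whether these came from separate animals. The p-values reflect array-to-array spread, which may be technical in part. In RNA of whole cultures, fewer cells of a type and less RNA per cell cannot be told apart.

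In unstressed cells KEAP1 binds NRF2 and directs it to degradation, so NRF2 activity is set largely at the level of the protein. Oxidants and electrophiles modify KEAP1, NRF2 accumulates, and with small MAF proteins it binds antioxidant response elements of genes for glutathione synthesis, thioredoxin and quinone reduction. Metallothioneins are small cysteine-rich proteins that bind zinc and copper. The metal-sensing factor MTF1 induces their genes through metal response elements, glucocorticoids and interleukin signals also raise them, and in brain Mt1 and Mt2 are known mainly from astrocytes.

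Of the 10 genes, 4 were higher in APPswe/PS1dE9 cultures than in WT cultures, namely Mt2, Mt1, Nfe2l2 and Gclm, and 0 were lower. The fitted changes were modest, between 1.21-fold for Gclm and 1.52-fold for Mt2. Of all 22797 features tested, 6.99% passed in that direction and 1.81% passed as lower (limma with Benjamini-Hochberg adjustment over all features, adjusted p under 0.05). With each array centred on its median in place of loess, 1385 features were higher and 1425 lower, against 1593 and 412 as reported. The median log2 ratio of APPswe/PS1dE9 over WT was 0.19 over the 10 genes and 0.01 over all features. The other 6 genes did not pass, Nqo1 among them. Tested as single probes among all 26884 kept probes, of which 6.89% were higher and 1.9% lower, 4 of the 10 were again higher. The count of 4 rests on all arrays: 3 genes passed without replicate 1 and 3 without replicate 2, while 0 passed without replicate 3 and 0 without replicate 4. Over all features, the higher count moved too, to 2281 without replicate 1, 1709 without replicate 2, 411 without replicate 3 and 311 without replicate 4.

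All 10 probes were well above background in both genotypes on all 4 arrays, and no spot was saturated. Over the whole arrays, 47.5% to 59.6% of probe spots were well above background in a channel. Genotype ratios of all features had Spearman correlations of 0.53 and 0.47 between arrays of the same dye orientation, and of 0.10 to 0.25 between arrays of different orientation. The 4 arrays lay on 1 slide scanned at 1 time, so no slide or scan batch divides them. Xist, the RNA of the inactive X chromosome, and the Y-linked Eif2s3y divided the cultures: replicates 2 and 4 had Xist well above background in both cultures and Eif2s3y in neither. On replicate 1 Eif2s3y was above background only in the APPswe/PS1dE9 culture and Xist only in the WT culture, and on replicate 3 the reverse, so the genotypes there also differed in these genes of sex. The APPswe/PS1dE9 culture of replicate 1 and the WT culture of replicate 3 thus differed from the other cultures of their genotype. The cultures of a genotype were therefore not all repeats of 1 RNA sample. On replicates 2 and 4 alone, 0 of the 10 genes passed, with ratios of 0.67 for Mt2, 0.54 for Mt1, 0.68 for Nfe2l2 and 0.26 for Gclm. That fit had only 1 array in each dye orientation and no dye intercept, so its count cannot be set against the count from 4 arrays. Levels are given below as normalized log2 intensity of a channel, and ratios as log2 of APPswe/PS1dE9 over WT within an array. Levels of different probes are not compared, because probes differ in brightness.

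**Figure D1:**
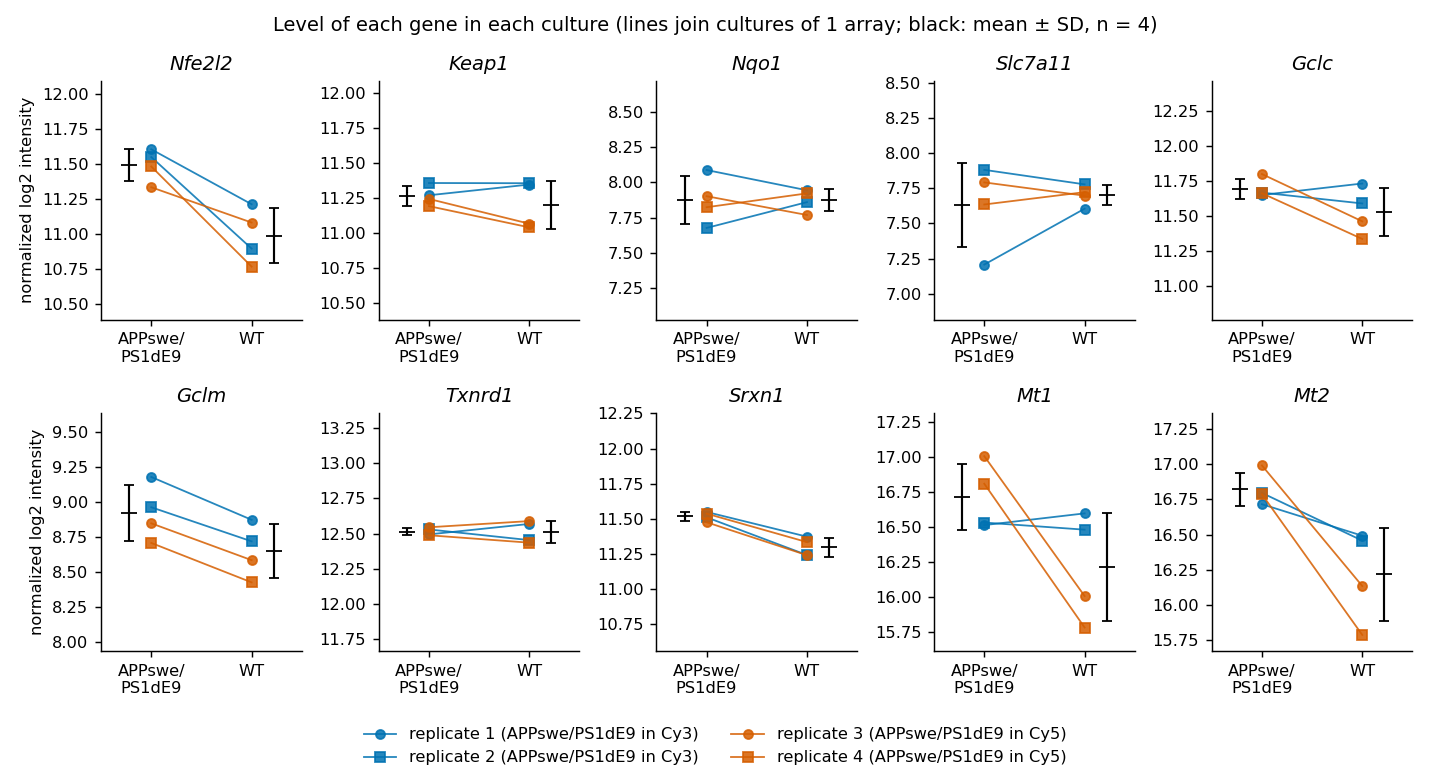
Normalized log2 intensity of each gene in each culture, APPswe/PS1dE9 left and WT right, with lines joining the cultures of 1 array, blue where APPswe/PS1dE9 was in Cy3 and orange where it was in Cy5; black marks are mean ± SD (n = 4), and all panels span the same number of log2 units. The cultures do not overlap for Nfe2l2, Srxn1 and Mt2, and the Mt1 lines are flat in blue and steep in orange.

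Nfe2l2, on chromosome 2, was 1.42-fold higher. It stood at 11.60, 11.55, 11.33 and 11.48 log2 intensity in the APPswe/PS1dE9 cultures of replicates 1 to 4, against 11.21, 10.90, 11.08 and 10.77 in the WT cultures. All 4 APPswe/PS1dE9 cultures lay above all 4 WT cultures, which held for 7.4% of all features in that direction. The log2 ratios were 0.39, 0.65, 0.25 and 0.71, with a fitted value of 0.50 ± 0.10 (SE, n = 4 arrays; limma, adjusted p = 0.0317). Both dye orientations gave a similar mean ratio, at 0.52 with APPswe/PS1dE9 in Cy3 and 0.48 with it in Cy5. The call was lost with the processed signals of the scanner software (0.52, limma adjusted p = 0.0936), without replicate 3 (0.62, limma adjusted p = 0.0754) and without replicate 4 (0.39, limma adjusted p = 0.155).

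The window around the Nfe2l2 start is shown because NRF2 is known to act on its own gene through antioxidant response elements. The RefSeq promoter table (GRCm38.p6) holds 250 bases before and 50 bases after each start, and it was searched on both strands for the element's core, TGACNNNGC. The core occurs in 12.4% of all 32851 windows, so a match describes the sequence and does not mark a site in use. The Nfe2l2 window held 1 core, in capitals in this stretch at chr2:75704870-75704913 on the minus strand.
Nfe2l2: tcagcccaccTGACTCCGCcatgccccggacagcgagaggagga
This core begins at -240, with position 0 the first base after the 250 upstream bases.

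Keap1, on chromosome 9, encodes the adaptor that hands NRF2 to its ubiquitin ligase, and it did not pass the test. It stood at 11.27, 11.36, 11.24 and 11.19 log2 intensity in APPswe/PS1dE9 cultures, against 11.35, 11.36, 11.07 and 11.04 in WT cultures. The cultures overlapped, and the ratio was above 0 on 3 of 4 arrays. The fitted log2 ratio was 0.06 ± 0.06 (SE, n = 4 arrays; limma, adjusted p = 0.579), with a 95% interval from -0.09 to 0.21. Its window held no antioxidant core.

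Around this pair, 17 of 18 listed partners and regulators of NRF2 were measured, and 1 was higher, 1 lower and 15 failed the test, the list's median log2 ratio being -0.05. Maff, which encodes a small MAF partner of NRF2, was higher, with ratios of 0.65, 0.59, 0.45 and 0.61 and a fitted value of 0.57 ± 0.06 (SE, n = 4 arrays; limma, adjusted p = 0.00538). Bach2, a repressor that binds MAF-type elements, was lower, with ratios of -0.36, -0.54, -0.35 and -0.59 and a fitted value of -0.46 ± 0.07 (SE, n = 4 arrays; limma, adjusted p = 0.0174). Each of these ratios kept 1 sign on all 4 arrays. Neither gene passed without replicate 3 (limma, adjusted p = 0.0518 for Maff and 0.0809 for Bach2) or without replicate 4 (limma, adjusted p = 0.0725 and 0.131), and Bach2 did not pass with the processed signals (limma, adjusted p = 0.0636). As a share of the list, 5.88% of the regulators were higher, close to the 6.99% of all features.

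Nqo1, on chromosome 8, encodes the quinone reductase most often read as a marker of NRF2 activity. It stood at 8.09, 7.68, 7.90 and 7.82 log2 intensity in APPswe/PS1dE9 cultures, against 7.94, 7.86, 7.77 and 7.92 in WT cultures. The ranges overlapped and the sign of the ratio differed between arrays, at 0.14, -0.18, 0.13 and -0.10. The fitted log2 ratio was -0.00 ± 0.08 (SE, n = 4 arrays; limma, adjusted p = 0.996). Its 95% interval ran from 0.868-fold to 1.15-fold (limma, on the normalization used here). With the processed signals of the scanner software it was lower than that range, at -0.23 ± 0.15, and did not pass either (SE, n = 4 arrays; limma, adjusted p = 0.377). The Nqo1 window held no antioxidant core.

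3 genes supply glutathione, the main small thiol of the cell. Slc7a11, on chromosome 3, encodes the cystine transporter xCT, which brings in the cysteine that glutathione needs. It stood at 7.21, 7.88, 7.79 and 7.64 log2 intensity in APPswe/PS1dE9 cultures, against 7.61, 7.78, 7.70 and 7.72 in WT cultures. Replicate 1 gave the lowest value of the gene in both genotypes, and the ratios were -0.40, 0.10, 0.09 and -0.09. The fitted log2 ratio was -0.07 ± 0.10 (SE, n = 4 arrays; limma, adjusted p = 0.704), and 0.05 without replicate 1. With the processed signals of the scanner software it was -0.38 ± 0.13 and below 0 on all 4 arrays, but did not pass (limma, adjusted p = 0.158).

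Gclc and Gclm encode the catalytic and the modifier subunit of glutamate-cysteine ligase, which carries out the rate-limiting step of glutathione synthesis. Gclm, on chromosome 3, was 1.21-fold higher. It stood at 9.18, 8.96, 8.85 and 8.71 log2 intensity in APPswe/PS1dE9 cultures, against 8.87, 8.72, 8.59 and 8.43 in WT cultures. The ranges overlapped because the level differed from array to array, while within each array the APPswe/PS1dE9 culture was above its WT culture by nearly the same amount. The ratios of 0.31, 0.24, 0.26 and 0.28 had an SD of 0.03, the smallest of the 10 genes, and the fitted log2 ratio was 0.27 ± 0.06 (SE, n = 4 arrays; limma, adjusted p = 0.0474). The call sat at the threshold: the value without 1 array ran from 0.26 to 0.29 with limma adjusted p of 0.0885 to 0.176, and with the processed signals it was 0.19 (limma, adjusted p = 0.240).

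The Gclm window held 1 antioxidant core, on the strand opposite to the gene, and it is shown as the only antioxidant core in a window of the ligase subunits that the table holds. The stretch lies at chr3:122245398-122245456 on the plus strand, with the core in capitals.
Gclm: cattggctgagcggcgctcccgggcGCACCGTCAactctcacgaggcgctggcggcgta
The core begins at -134 and overlaps 1 of the 3 metal response cores of this window, the one that begins at -138. The motif and the window are small, and no binding was measured.

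Gclc, on chromosome 9, stood at 11.65, 11.67, 11.80 and 11.66 log2 intensity in APPswe/PS1dE9 cultures, against 11.73, 11.59, 11.46 and 11.34 in WT cultures. The ranges overlapped, and the APPswe/PS1dE9 culture of replicate 3 stood apart from the other APPswe/PS1dE9 cultures. The ratios were -0.08 and 0.08 with APPswe/PS1dE9 in Cy3 and 0.34 and 0.33 with it in Cy5. The fitted log2 ratio was 0.16 ± 0.06 (SE, n = 4 arrays; limma, adjusted p = 0.185), and the gene did not pass.

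**Figure D2:**
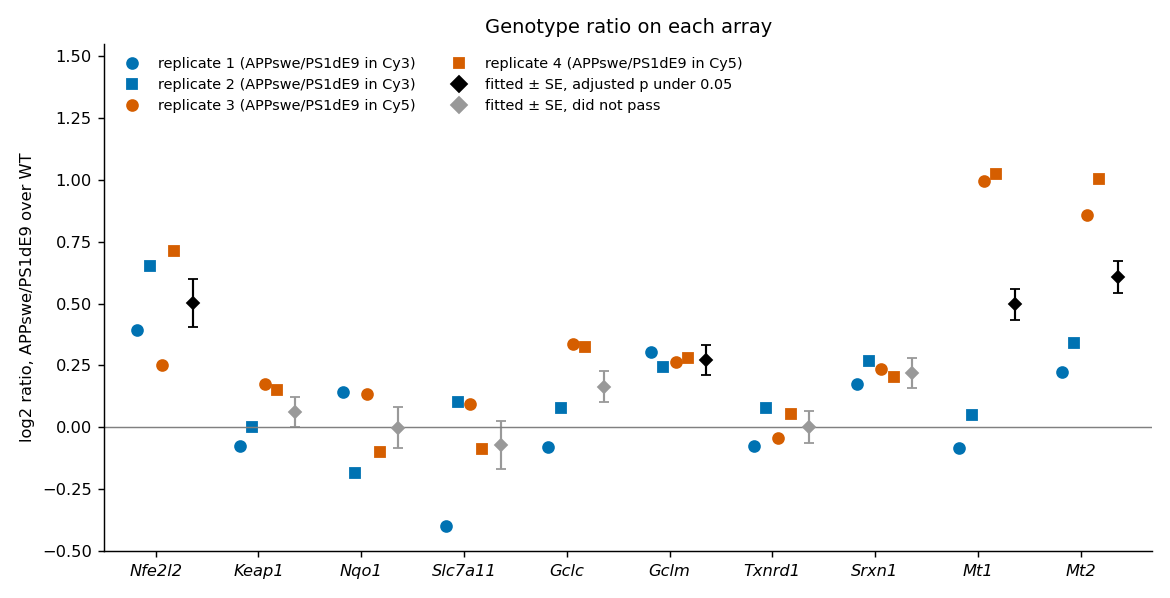
Log2 ratio of APPswe/PS1dE9 over WT on each array (blue, APPswe/PS1dE9 in Cy3; orange, in Cy5) and the fitted value ± SE (diamonds, black where adjusted p was under 0.05). The Gclm and Srxn1 points lie close together above 0, the Nqo1, Slc7a11 and Txnrd1 points fall on both sides of 0, and the blue and orange points of Mt1 and Mt2 are apart.

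Txnrd1 and Srxn1 keep protein thiols reduced. Txnrd1, on chromosome 10, encodes cytosolic thioredoxin reductase and stood at 12.49, 12.53, 12.54 and 12.49 log2 intensity in APPswe/PS1dE9 cultures, against 12.57, 12.45, 12.59 and 12.44 in WT cultures. The ranges overlapped, and the fitted log2 ratio was 0.00 ± 0.06 (SE, n = 4 arrays; limma, adjusted p = 0.987). Its 95% interval ran from 0.897-fold to 1.12-fold. Of 3 Txnrd1 windows in the RefSeq table, 1 held an antioxidant core.

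Srxn1, on chromosome 2, encodes sulfiredoxin, which repairs overoxidised peroxiredoxins. It stood at 11.55, 11.51, 11.47 and 11.54 log2 intensity in APPswe/PS1dE9 cultures, against 11.37, 11.24, 11.24 and 11.33 in WT cultures. The 4 APPswe/PS1dE9 cultures lay above the 4 WT cultures, and the ratios of 0.18, 0.27, 0.23 and 0.20 were all above 0, which 16% of all features showed on their 4 arrays. The fitted log2 ratio was 0.22 ± 0.06 (SE, n = 4 arrays), a 1.17-fold difference that did not pass after adjustment (limma, adjusted p = 0.0862). With an intensity trend in the variance prior it passed (limma, adjusted p = 0.0458). Its window held 1 antioxidant core, which began at 28, past the start.

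The metallothioneins Mt1 and Mt2 lie next to each other on chromosome 8, in the order Mt4, Mt3, Mt2 and Mt1 with no other protein-coding gene between them. Mt2 was 1.52-fold higher, with a 95% interval from 1.36-fold to 1.70-fold. It stood at 16.72, 16.80, 16.99 and 16.79 log2 intensity in APPswe/PS1dE9 cultures, against 16.49, 16.46, 16.13 and 15.78 in WT cultures. The cultures did not overlap, and the fitted log2 ratio was 0.61 ± 0.07 (SE, n = 4 arrays; limma, adjusted p = 0.00469). Mt2 was the member with the smallest p. It passed under 14 of 14 other processing settings, with log2 ratios of 0.38 to 0.61, and several of these left its fitted ratio unchanged. With median centring, which it passed, it was at -0.83, -1.10, 1.39 and 2.06 on replicates 1 to 4. It did not pass without replicate 3 (0.64, limma adjusted p = 0.0518) or without replicate 4 (0.57, limma adjusted p = 0.0701).

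Mt1 was 1.41-fold higher in the fit. It stood at 16.51, 16.53, 17.00 and 16.81 log2 intensity in APPswe/PS1dE9 cultures, against 16.60, 16.48, 16.01 and 15.78 in WT cultures. The cultures overlapped: on replicates 1 and 2 the genotypes were level, and on replicates 3 and 4 the APPswe/PS1dE9 culture was about 1 log2 unit above its WT culture. The fitted log2 ratio was 0.50 ± 0.06 (SE, n = 4 arrays; limma, adjusted p = 0.00809). Without the dye intercept, the SE includes the difference between orientations, and Mt1 then did not pass (0.50, limma adjusted p = 0.219). Nor did it pass with median centring (0.28, limma adjusted p = 0.103), where the array ratios were -1.13, -1.37, 1.52 and 2.09, with the processed signals (0.46, limma adjusted p = 0.0582), without replicate 3 (0.50, limma adjusted p = 0.0787) or without replicate 4 (0.49, limma adjusted p = 0.0933). RNAs of Mt1 and Mt2 are closely related, and whether either probe also bound the other's RNA was not tested.

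The upstream windows of both genes are shown because metal response elements, whose core was searched as TGCACNC or TGCGCNC on both strands, are the known route of metal induction. At least 1 such core occurs in 25.7% of all windows, and 3 or more occur in 1.97%. The Mt2 window held 4 and the Mt1 window 3, and the Gclm window also held 3. Of the metallothionein cores, those upstream of the start are in capitals in these plus-strand stretches at chr8:94172370-94172599 and chr8:94179041-94179088.
Mt2: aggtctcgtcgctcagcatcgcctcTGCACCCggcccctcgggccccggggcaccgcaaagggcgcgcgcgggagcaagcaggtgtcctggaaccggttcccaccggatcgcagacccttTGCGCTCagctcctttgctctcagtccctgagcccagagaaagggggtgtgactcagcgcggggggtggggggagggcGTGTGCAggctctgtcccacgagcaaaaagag
Mt1: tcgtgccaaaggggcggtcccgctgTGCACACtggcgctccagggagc
The Mt2 cores begin at -223, -128 and -50 before the start and at 4 after it, and the Mt2 window also held 1 antioxidant core at -79. The Mt1 cores begin at -23 before the start and at 2 and 20 after it.

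The difference between dye orientations was measured for every gene by the dye term of the same fit, which is positive where the ratio was higher with APPswe/PS1dE9 in Cy5. Mt1 averaged -0.02 with APPswe/PS1dE9 in Cy3 and 1.01 with it in Cy5, with a dye term of 0.51 ± 0.06 (SE, n = 4 arrays; limma, unadjusted p = 0.000180, adjusted p = 0.147). Mt2 averaged 0.28 and 0.93 in the same order, with a dye term of 0.32 ± 0.07 (SE, n = 4 arrays; limma, unadjusted p = 0.00251, adjusted p = 0.167). Gclc had a dye term of 0.17 ± 0.06 (SE, n = 4 arrays; limma, unadjusted p = 0.0397, adjusted p = 0.328), and the remaining 7 genes had dye terms from -0.02 to 0.10. By this limma test 0 of 22797 features passed after adjustment, and 14.6% had an unadjusted p under 0.05.

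**Figure D3:**
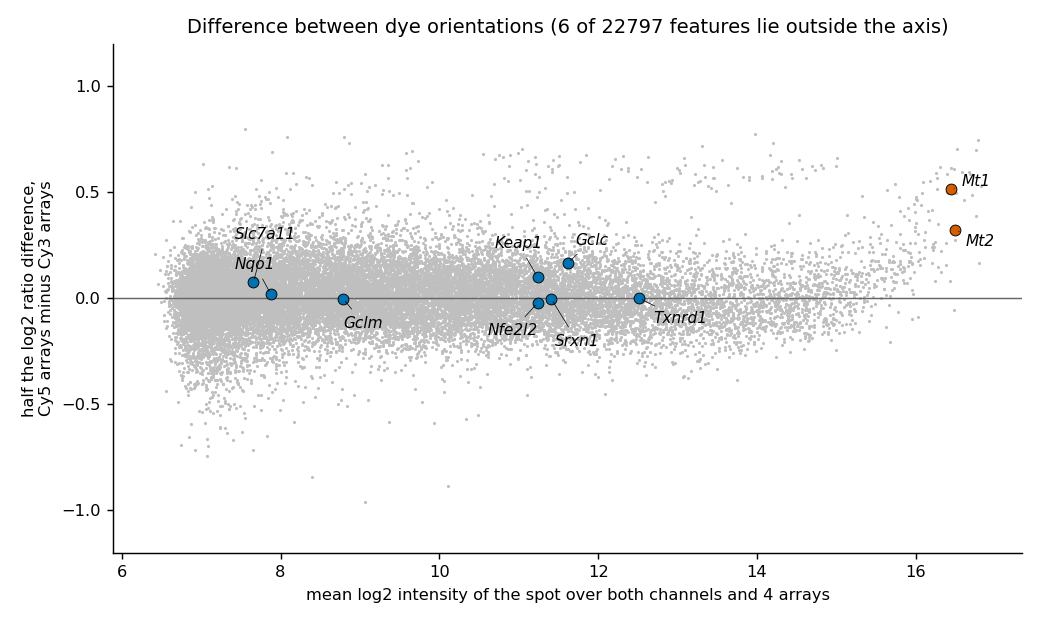
Dye term of every feature, positive where the log2 ratio was higher on arrays with APPswe/PS1dE9 in Cy5 than on arrays with it in Cy3, against the mean log2 intensity of its spot over both channels and 4 arrays; grey points are features, blue and orange points the 10 genes, and 6 of 22797 features lie outside the axis. Grey points bend upward at the bright end, where Mt1 (0.51) and Mt2 (0.32) lie.

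Brightness moved with this difference. Mt2 and Mt1 were the 13th and 19th brightest of all features, and among the 50 brightest the dye term was above 0 in 49, with a median of 0.42, against 0.01 over all features. Of these 50, 19 had a dye term at least as large as that of Mt1 and 30 at least as large as that of Mt2. With the processed signals the median dye term of the same 50 features was 0.25, and the ratios of Mt1 became 0.11, 0.25, 0.71 and 0.77 and those of Mt2 0.32, 0.47, 0.67 and 0.85. The part of the dyes in the metallothionein ratios was not tested beyond these values.

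The signals before any normalization show the same genes from another side, with each dye set against itself across arrays. In Cy5, Mt1 read 178469 and 197864 in APPswe/PS1dE9 cultures, against 159031 and 158837 in WT cultures. In Cy3, Mt1 read 59597 and 50147 in APPswe/PS1dE9 cultures, against 45707.5 and 31374 in WT cultures. In each dye the 2 APPswe/PS1dE9 cultures were above the 2 WT cultures, although the arrays were not brought to a common scale here.

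Mt3, the neuronal and astrocytic growth-inhibitory metallothionein next to Mt2, was also higher. It stood at 13.24, 12.89, 13.06 and 13.15 log2 intensity in APPswe/PS1dE9 cultures, against 12.99, 12.65, 12.68 and 12.62 in WT cultures. Its ratios of 0.24, 0.24, 0.38 and 0.52 gave a fitted value of 0.35 ± 0.06 (SE, n = 4 arrays; limma, adjusted p = 0.0260), with a dye term of 0.10. It did not pass with median centring (0.18, limma adjusted p = 0.343), an offset of 0 (0.34, limma adjusted p = 0.0613), no filter on dim probes (0.35, limma adjusted p = 0.0752), the processed signals (0.35, limma adjusted p = 0.0821), without replicate 3 (0.38, limma adjusted p = 0.102) or without replicate 4 (0.31, limma adjusted p = 0.147). Mtf1, which encodes the metal-sensing factor, had ratios of -0.00, 0.18, 0.20 and 0.12 and did not pass (0.12 ± 0.07, SE, n = 4 arrays; limma, adjusted p = 0.318).

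Beyond the members, 26 of 30 listed genes of metallothionein, zinc and copper handling were measured, Mt3 and Mtf1 among them, and 6 were higher, 2 lower and 18 failed the test, the list's median log2 ratio being 0.07. The higher share was 23.1% of the list, against 6.99% of all features. Without replicate 3, and likewise without replicate 4, 1 was higher and 0 lower, and with the processed signals 3 and 0. Over all features, the higher count fell from 1593 to 411, 311 and 638 in the same order. Slc39a4, a zinc importer known from intestine, was the most changed, at 1.32 ± 0.06 with ratios of 1.42, 1.30, 1.28 and 1.30 (SE, n = 4 arrays; limma, adjusted p = 0.000334). The importers Slc39a14, at 0.56 (limma, adjusted p = 0.00655), and Slc39a12, at 0.58 (limma, adjusted p = 0.00658), were also higher on all 4 arrays. Slc30a10, a manganese exporter of the zinc exporter family, was lower at -0.47 ± 0.07 (SE, n = 4 arrays; limma, adjusted p = 0.0140). The dye terms of these 4 transporters lay between -0.03 and 0.08, unlike those of Mt1 and Mt2.

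Other NRF2 targets were read from a list of 50 genes, of which 46 were measured. Of these, 13 were higher, 0 lower and 33 failed the test, the list's median log2 ratio being 0.12. That is 28.3% of the list against 6.99% of all features, and 38 of the 46 had a fitted value above 0. The count of 13 fell to 1 without replicate 3, 1 without replicate 4 and 3 with the processed signals, and median centring gave 6 higher and 2 lower. Over all features, the higher count fell from 1593 to 411 of 22734 without replicate 3, 311 of 22755 without replicate 4 and 638 of 22797 with the processed signals. Ephx1 passed under all of these settings. The 4 of smallest p serve detoxification and iron storage. Ephx1, microsomal epoxide hydrolase, was 2.11-fold higher at 1.08 ± 0.06, with ratios between 0.99 and 1.15 on the 4 arrays (SE, n = 4 arrays; limma, adjusted p = 0.000575). Cbr3, a carbonyl reductase, was at 0.64 ± 0.07 (SE, n = 4 arrays; limma, adjusted p = 0.00464). Prdx6, a peroxiredoxin with phospholipase activity, was at 0.57 ± 0.06 (SE, n = 4 arrays; limma, adjusted p = 0.00503), but with ratios of 0.09 and 0.23 in one dye orientation and 0.96 and 1.01 in the other. Fth1, the ferritin heavy chain, was at 0.52 ± 0.07 (SE, n = 4 arrays; limma, adjusted p = 0.00799).

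Several of the other higher genes are glutathione S-transferases of the mu class and aldo-keto reductases, whose paralogs are close in sequence, and cross-binding between them was not tested. Hmox1, haem oxygenase, a much used stress gene named here after its values were seen, had ratios of 0.12, 0.49, 0.19 and 0.26 and did not pass (0.27 ± 0.08, SE, n = 4 arrays; limma, adjusted p = 0.109). The 4 genes missing from the list's count are Gsta1 and Cyp2a5, with no matched probe, and Mgst2 and Ugt1a6a, which did not pass the filter on dim probes.

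**Figure D4:**
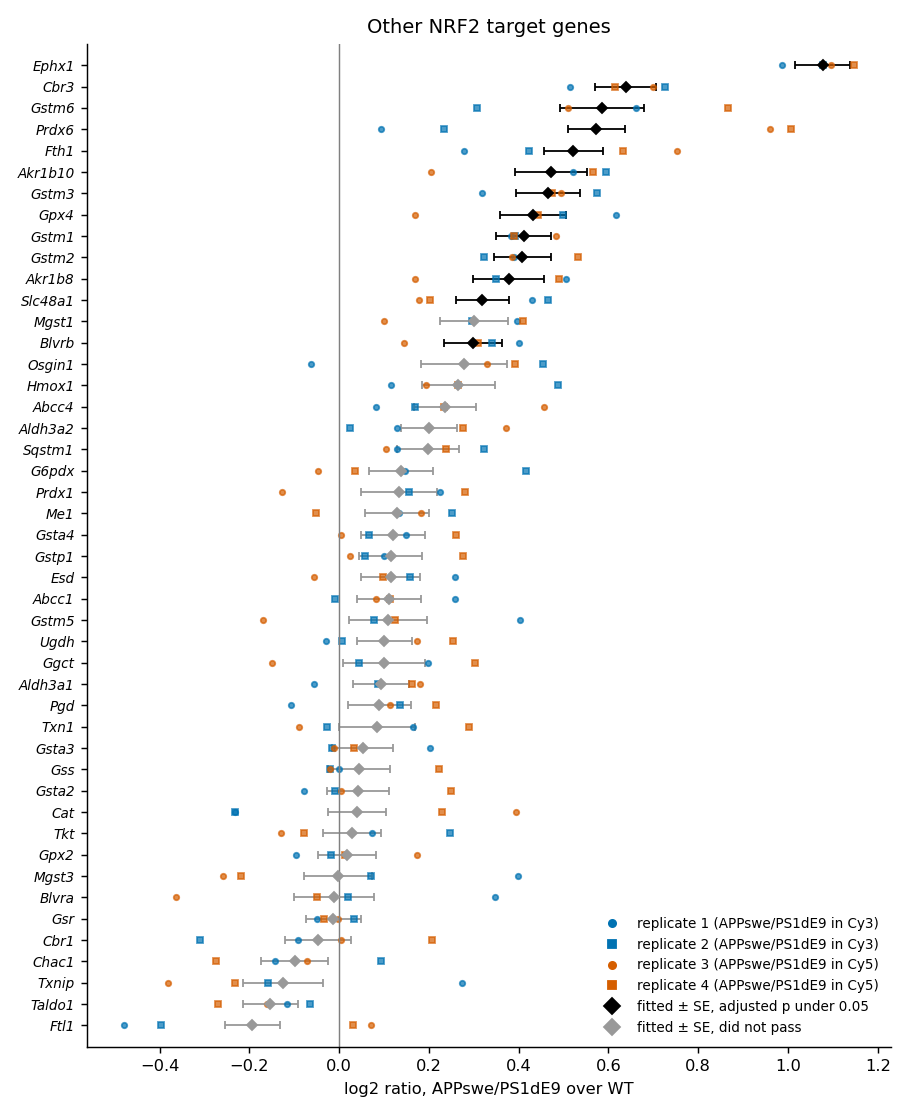
Log2 ratio of APPswe/PS1dE9 over WT for the 46 measured genes of the list of other NRF2 targets, sorted by fitted value, with each array's ratio (blue, APPswe/PS1dE9 in Cy3; orange, in Cy5) and the fitted value ± SE (diamonds, black where adjusted p was under 0.05). The 13 black diamonds all lie right of 0, and Ephx1 at 1.08 stands clear of the rest.

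Among 30 antioxidant enzymes outside the members, which share Prdx6, Gpx4, Prdx1, Txn1 and Cat with the list above, 7 were higher, 0 lower and 23 failed the test, the list's median log2 ratio being 0.13. The higher share was 23.3% of the list, against 6.99% of all features. The count fell to 0 without replicate 3, 0 without replicate 4 and 2 with the processed signals. Over all features, the higher count fell from 1593 to 411, 311 and 638 in the same order. Gpx1, a selenium-dependent glutathione peroxidase, was at 0.58 ± 0.06, with ratios of 0.80, 0.69, 0.35 and 0.47 (SE, n = 4 arrays; limma, adjusted p = 0.00505). Gpx4, which reduces lipid peroxides, was at 0.43 ± 0.07 (SE, n = 4 arrays; limma, adjusted p = 0.0213), and Selenop, a selenium carrier, at 0.38 ± 0.07 (SE, n = 4 arrays; limma, adjusted p = 0.0220). The superoxide dismutase Sod1, named after its values were seen, did not pass (0.11 ± 0.07, SE, n = 4 arrays; limma, adjusted p = 0.368).

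Because glucocorticoids and interleukin signals are known inducers of metallothioneins, lists of genes that respond to them were set beside Mt1 and Mt2. Of 20 glucocorticoid-responsive genes, 5 were higher, 1 lower and 14 failed the test, the list's median log2 ratio being 0.15. The higher share was 25% of the list, against 6.99% of all features. Without replicate 3, and likewise without replicate 4, 1 was higher and 0 lower, with the processed signals 2 and 0, and with median centring 5 and 3. Over all features, the higher count went from 1593 to 411, 311, 638 and 1385 in the same order. The cell cycle inhibitor Cdkn1a was at 0.64 (limma, adjusted p = 0.00506), the pyruvate dehydrogenase kinase Pdk4 at 0.65 (limma, adjusted p = 0.00569) and the lipid droplet gene Plin4 at 0.44 (limma, adjusted p = 0.0219). Of genes named after their values were seen, Fkbp5, at -0.10 (limma, adjusted p = 0.453), and Tsc22d3, at -0.13 (limma, adjusted p = 0.284), did not pass. Nor did Per1, at 0.21 (limma, adjusted p = 0.119), or Klf9, at 0.28 (limma, adjusted p = 0.103). Of the 20 genes, 11 had a fitted value above 0.

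Of 13 measured genes of 19 that respond to STAT3 and interleukin-6 type signals, 11 were higher, 0 lower and 2 failed the test, the list's median log2 ratio being 0.69. The higher share was 84.6% of the list, against 6.99% of all features, and the count was 6 without replicate 3 and 5 without replicate 4. Over all features, the higher count fell from 1593 to 411 and 311 in the same order. Cebpd, a transcription factor also on the glucocorticoid list, was at 2.09 ± 0.08 with ratios of 1.73, 2.07, 2.17 and 2.38 (SE, n = 4 arrays; limma, adjusted p = 0.000234). Osmr, the oncostatin M receptor, was at 1.23 (limma, adjusted p = 0.000636), and Serpina3n, an acute-phase protease inhibitor of reactive astrocytes, at 1.26 (limma, adjusted p = 0.000777). Bcl3, a nuclear co-regulator of NF-kappaB, was not well above background in WT on any array and was at least 2.23-fold higher in APPswe/PS1dE9 (limma, adjusted p = 0.000859). For such a gene the bound sets the mean of the bright genotype against the higher of the dim probe and the lowest signal well above background on each array. It is computed from channel values after loess and quantile scaling of mean intensity. The 2 genes that failed the test, named after their values were seen, were Socs3, at 0.21 (limma, adjusted p = 0.0947), and Fos, at -0.04 (limma, adjusted p = 0.797). Junb, Icam1, Pim1, Lif, Il6 and Hamp were not measured, because they did not pass the filter on dim probes. This list shares Gfap with the astrocyte markers. The part of glucocorticoids or interleukin signals in the values of Mt1 and Mt2 was not tested.

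Markers of several cell types also differed between the genotypes, some higher and some lower. Of 12 astrocyte markers, 5 were higher and 0 lower. The higher share was 41.7%, against 6.99% of all features, of which 1.81% were lower. Over all features, the higher count fell from 1593 to 411 without replicate 3 and 311 without replicate 4. Marker counts are given here for the fit on all 4 arrays only. The summed linear intensity of the 12 astrocyte markers was 152642 to 167286 in APPswe/PS1dE9 cultures, against 113438 to 138277 in WT cultures. Its ratios were 1.21, 1.24, 1.39 and 1.35 on replicates 1 to 4. Gfap was at 0.69 (limma, adjusted p = 0.00283) and Aqp4 at 0.73 (limma, adjusted p = 0.00778). Of 11 measured microglia markers, 10 were higher. Among these, Tyrobp, Trem2, C1qa and Tmem119 were well above background in WT on only 1 of 4 arrays. With Cx3cr1 they passed the filter only through APPswe/PS1dE9, where they were higher, so this count depends in part on the filter. Ptprc and P2ry12 did not pass the filter, and Cd68 had no matched probe. The sum was 13557 to 17541 in APPswe/PS1dE9 cultures, against 9687 to 11942 in WT cultures. It covers 10 markers, with Itgam, which did not pass, and without C1qa, which lacked a value on replicate 4. Aif1 was at 2.22 (limma, adjusted p = 0.000177) and Cx3cr1 at 2.31 (limma, adjusted p = 0.000201), with Cx3cr1 well above background in WT on 2 of 4 arrays.

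The same shares of all features, 6.99% higher and 1.81% lower, stand beside the marker counts that follow. All 6 measured ependyma and choroid plexus markers were higher, with sums of 9732 to 14184 in APPswe/PS1dE9 cultures, against 5070 to 5964 in WT cultures. Ttr was at 1.06 (limma, adjusted p = 0.00831) and Folr1 at 0.51 (limma, adjusted p = 0.0131). Of 10 neuron markers 0 were higher and 3 lower, Dcx at -0.54 (limma, adjusted p = 0.0332) among them, while Tubb3 at -0.13 did not pass (limma, adjusted p = 0.375). Of 9 oligodendrocyte lineage markers none passed in either direction by limma, with Pdgfra at -0.11 (limma, adjusted p = 0.384) and Cspg4 at 0.32 (limma, adjusted p = 0.0842). Of 7 progenitor markers 1 was lower, with Nes at 0.55 (limma, adjusted p = 0.0555) and Sox2 at -0.12 (limma, adjusted p = 0.284). Their sum was 24558.5 to 27671 in APPswe/PS1dE9 cultures, against 27810 to 33022 in WT cultures. Its ratios were 0.80, 0.85, 0.83 and 0.88 on replicates 1 to 4. Of 6 measured vascular and mural markers 1 was higher and 2 lower, with Pecam1 at 0.17 (limma, adjusted p = 0.480), and Flt1 was never well above background in WT. Markers of astrocytes and neurons, the cell types such differentiation yields, were present in both genotypes. The part of cell composition in the values of Nfe2l2, Gclm, Mt1 and Mt2 was not tested.

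For each of these 4 genes, the named genes of closest pattern were found by the Euclidean distance of the 4 log2 ratios over 13622 genes measured on all arrays. Nfe2l2 was nearest to Sdc2 (distance 0.0767) and Raver2 (distance 0.111). Gclm was nearest to Aqp1 (distance 0.0337) and Slc6a7 (distance 0.0569). Mt1 was nearest to Prdx6 (distance 0.258) and Mir17hg (distance 0.265), and Mt2 to Afap1l2 (distance 0.186) and Apoe (distance 0.194). The neighbours of both metallothioneins carried the same split between dye orientations, which follows from choosing them by these 4 ratios. Prdx6 was at 0.09 and 0.23 against 0.96 and 1.01, and Apoe at 0.31 and 0.37 against 0.88 and 0.83. The metallothionein distances were the larger ones, but distances were not scaled to the size of the ratios and do not rank the members by closeness of pattern.

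**Figure D5:**
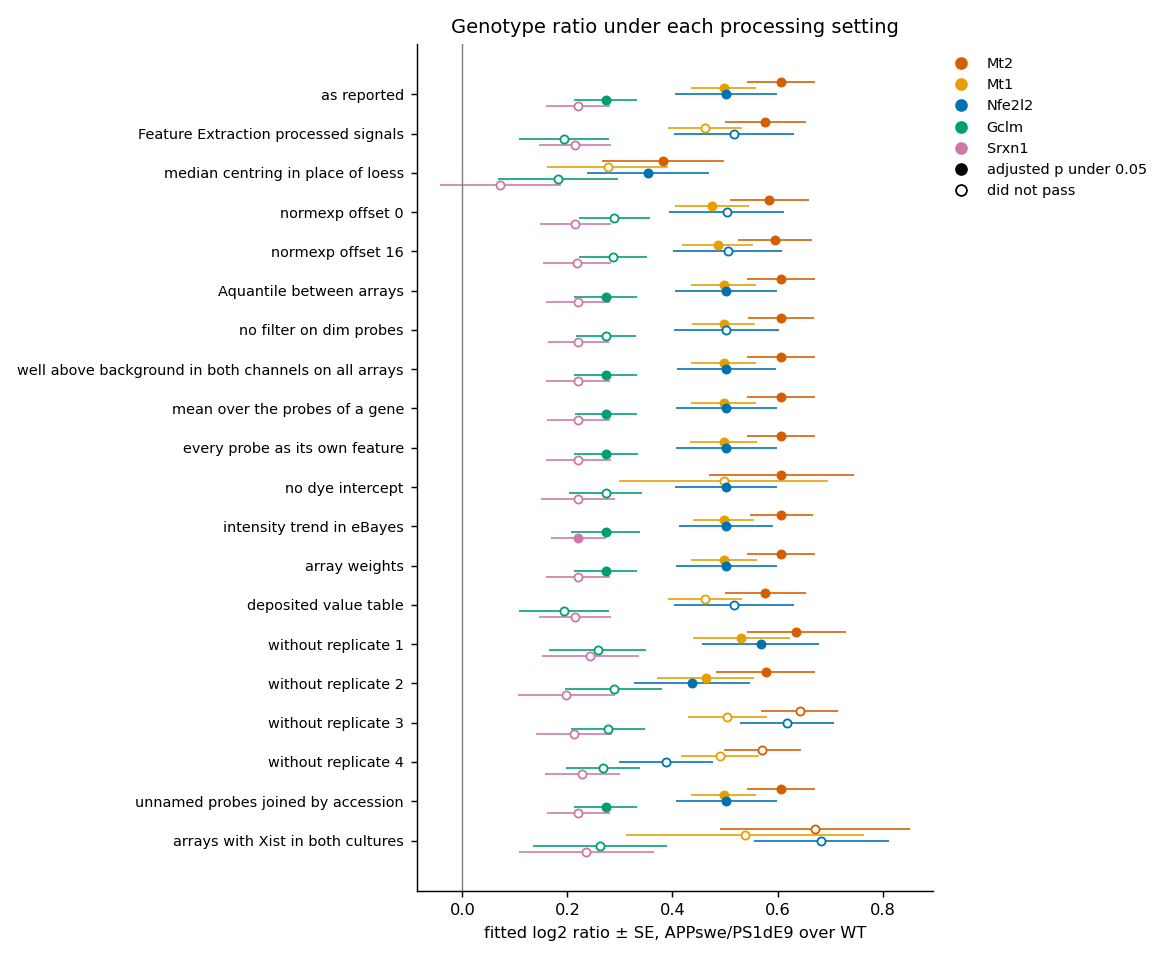
Fitted log2 ratio ± SE of APPswe/PS1dE9 over WT for 5 genes under each processing setting, as reported at the top and with arrays left out near the bottom; filled points had an adjusted p under 0.05 and open points did not. All points lie right of 0, the Mt2 points are filled except without replicate 3, without replicate 4 and on the 2 arrays with Xist in both cultures, and the Srxn1 point is filled with the intensity trend.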

How the data were processed

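Expression was measured on 4 two-colour Agilent arrays, each an APPswe/PS1dE9 and a WT culture. The deposited scanner output gives, for each spot and its surroundings, an unnormalized median intensity per channel; per the file headers it was made with Feature Extraction 11.0.1.1 and an mm9 annotation. Per the file headers it also holds processed signals with background and dye correction, an intensity too, and the log10 ratio of Cy5 over Cy3. The authors also deposited a value table of log2 ratios for 29350 spots. Set against the scanner files, these were APPswe/PS1dE9 over WT, uncentred (slopes -1.00, -1.00, 1.00 and 1.00 on log2 of Cy5 over Cy3; medians -0.0797, -0.155, -0.0373 and -0.0378).

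Here, limma 3.58.1 (R 4.3.3) was run with normexp (offset 50) and loess within arrays. Probes well above background in 1 genotype on at least 3 arrays were kept (26884 of 55681), the brightest per gene, and unnamed probes as features of their own. By accession, 27509 probes matched 20887 symbols in RefSeq (GRCm38.p6, used for names and promoters). Genotype was fitted beside a dye intercept, with 3.98 prior and 2 residual degrees of freedom. SE and p cover the spread within a dye orientation. P-values are two-sided. Channel levels are from loess and Aquantile. Precision is limited by having 4 arrays.

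The members, the gene lists and the markers were chosen with earlier results of these data known. Named genes were all members, Mt3, Mtf1, of each list the 4 of smallest p past the threshold, of each cell type list the first 2, and the 2 nearest genes of each member past the threshold. Alternatives changed 1 step at a time, or left out an array. No protein sequences were used here, and Gclc has no window in the promoter table.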

Additional observations from a re-analysis of the deposited data

Results flagged for a closer look

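The log2 ratios and the levels in each genotype of the 10 genes gave 30 groups of 4 values. Each was checked for a value far from the others, and 1 was past the criterion, where chance gives about 1 in 20 groups. It was the level of Gclc over the APPswe/PS1dE9 cultures: replicate 3 stood at 11.80 log2 intensity, against 11.65 to 11.67 in the other APPswe/PS1dE9 cultures, a gap of 0.888 of the whole range. Gclc did not pass the genotype test with all arrays.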

How the results depend on the processing

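Mt2 passed under 14 of 14 alternative processing settings, Mt1 under 10, Nfe2l2 under 9, Gclm under 7 and Srxn1 under 1. These 5 fitted log2 ratios stayed above 0 under all of them, although with median centring each of the 5 genes was above 0 on only 2 of 4 arrays. Against 4 members higher as reported, 1 was higher with the processed signals and 1 with the deposited value table, 2 with median centring, 2 with an offset of 0, 2 with an offset of 16, 2 with no filter on dim probes and 2 without the dye intercept. Leaving out 1 array gave 0 to 3, both per gene and per probe, with 0 without replicate 3 and 0 without replicate 4; the fit then has 1 array in an orientation. Replicates 2 and 4, the 2 arrays with Xist in both cultures and Eif2s3y in neither, were an alternative chosen after seeing the data. Fitted without a dye intercept, they gave 0, with 388 features higher and 7 lower. Over all features, against 1593 higher and 412 lower, the processed signals gave 638 and 164, the deposited values 641 and 157, no filter 850 and 67, median centring 1425 lower, and no dye intercept 248 lower, and leaving out 1 array gave 311 to 2281 higher and 5 to 495 lower. The dye term passed in 0 members as reported, in 10 with median centring and in 0 to 1 without 1 array. Aquantile leaves the ratios as they are by its construction, and since each member has 1 probe, settings on several probes of a gene leave the members' ratios as they are and change SE and p slightly. Values near 0 changed sign: Keap1 was at -0.087 with median centring, Mtf1 at -0.010 as a mean over its probes, and Slc7a11 at 0.0078 on the Xist arrays. Txnrd1 was at -0.0093 with the processed signals, -0.0093 with the deposited values, -0.16 with median centring, -0.0084 with an offset of 0 and -0.0032 with an offset of 16. Without 1 array, Nqo1 ran from -0.083 to 0.081, Slc7a11 from -0.20 to 0.053 and Txnrd1 from -0.035 to 0.040. The cause of these changes was not tested. Each array pairs its cultures, so the fit is itself paired. All members were well above background, but Slc7a11 and Nqo1, with unnormalized signals of 93 to 283 and 139 to 302, moved with the offset and the processed signals. Slc7a11 was at -0.07 as reported, -0.11 with an offset of 16, -0.14 with an offset of 0 and -0.38 with the processed signals. Nqo1 was at -0.00, -0.01, -0.03 and -0.23 in the same order.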
